A study of Danio rerio with 4 samples.

Results

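The collagen genes of epicardium-derived cells of the injured zebrafish heart are described here. All genes of the count tables whose symbol is col followed by a digit, in any case, were taken as members, and 45 of the 20880 genes with a transcript in a counted well met this rule. Of these, 12 code for fibrillar collagens, 8 for basement membrane collagens and 25 for other types. A further 12 symbols of the name table fit the rule but were not analysed here.

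The study asked what the transcription factor Prrx1b does in cells that derive from the epicardium, the outer layer of the heart, after an injury. Cells were sorted singly by FACS into 384-well plates by SORT-seq, and the plates comprised 2 of prrx1b-/- cells and 2 of WT (wild-type sibling) cells. The mutant fish are homozygous for the el491 allele of prrx1b in every cell of the body. Hearts of all 4 plates were cryoinjured adult ventricles taken at 7 dpi (days post injury), and all fish carried the same reporter, named Tg(tcf21:mCherry) in the labels and in the methods a tcf21:CreERT2 driver that switched a ubiquitous EGFP cassette to mCherry in tcf21-expressing cells of the embryo. Labelling by this driver is incomplete, so the sorted cells are a subset of the epicardium-derived cells. Each genotype came from 20 hearts, and no separate hearts are named for each plate. The p-values between genotypes therefore measure the spread between plates, which may be technical, and the genotype cannot be told apart from the set of hearts.

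A well was counted with at least 1000 transcripts, which left 366 wells in each prrx1b-/- plate, against 357 and 364 wells in the WT plates. Median transcripts per well were 7654 and 7543 in the prrx1b-/- plates and 6055 and 5065 in the WT plates. The 2 genes named PRRX1 could not be assigned to the a and b copies by symbol. Gene ENSDARG00000033971 was at 97.0 and 138 transcripts per 1000000 transcripts of the plate (CPM) in the mutant plates, against 117 and 122 CPM in the WT plates, and gene ENSDARG00000042027 at 3.98 and 2.60 CPM in the mutant plates, against 2.40 and 1.14 CPM in the WT plates. These levels therefore neither bear out nor contradict the genotype labels. The 4 epicardial markers tcf21, tbx18, wt1b and aldh1a2 together had 1097 and 1183 CPM in the mutant plates, against 1040 and 1018 CPM in the WT plates. Summed endothelial markers (3 of 6 found) lay between 4.57 and 8.58 CPM over the 4 plates, and erythrocyte markers (2 of 6 found) were at or near 0. Cardiomyocyte markers (5 of 6 found) summed to 17.8 and 5.49 CPM in the mutant plates, against 135 and 9.13 CPM in WT plates 1 and 2. Leukocyte markers (5 of 7 found) summed to 26.2 and 21.4 CPM in the mutant plates, against 229 and 178 CPM in the WT plates, and most of this was cd74a and cd74b, the MHC class II chaperone genes.

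Collagens are secreted proteins of 3 chains wound into a triple helix. Type I is the main fibril of scars and tendons, and types V and XI are minor chains laid into its core that help to set how fibrils start and how thick they become. Types XII, XIV and XVI sit on the surface of fibrils, type VI forms beaded filaments close to cells, and types IV, XV and XVIII belong to basement membranes. In the injured zebrafish heart, fibroblasts and epicardial cells lay down a collagen-rich matrix that is later removed as muscle regrows.

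Collagen transcripts were abundant and concentrated in a few genes. The members held 451796 transcripts in all, of which fibrillar members took 72.0%, other types 24.0% and basement membrane members 3.96%. The 3 type I genes alone took 58.5% and the 16 most abundant members 99.6%. The method counts the 3′ ends of transcripts, so CPM does not scale with transcript length.

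Among the type I chains, COL1A1 (ENSDARG00000035809) was highest, at 8719 and 8819 CPM in the mutant plates, against 6163 and 8829 CPM in the WT plates. The other alpha 1 chain, col1a1a (ENSDARG00000012405), was at 7060 and 7135 CPM in the mutant plates, against 5053 and 7833 CPM in the WT plates. COL1A2, the alpha 2 chain, was at 6082 and 6006 CPM in the mutant plates, against 4202 and 6435 CPM in the WT plates. All 3 were lowest in WT plate 1, whereas WT plate 2 was above both mutant plates for each, so that the genotypes overlapped. The chains kept nearly fixed proportions, with COL1A1 between 1.13 and 1.24 times col1a1a and COL1A2 between 0.822 and 0.862 times col1a1a over the 4 plates. Each was found in 99.2% to 99.7% of all counted wells. Transcripts that drew the same molecular barcode were corrected for in the deposited values. If the barcodes had 6 bases, under which 1423 of the 1446 COL1A1 values above 0 match the correction within 0.006, it added 3.50% to COL1A1, 2.73% to col1a1a and 2.69% to COL1A2. The methods name a shorter barcode, so these percentages rest on that assumption.

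The type V chain COL5A1 was the fourth most abundant member, at 3437 and 3319 CPM in the mutant plates, against 2655 and 3427 CPM in the WT plates. Its partner COL5A2 was at 1106 and 1088 CPM in the mutant plates, against 840 and 974 CPM in the WT plates. Here both mutant plates were above both WT plates, as was so for 20.6% of all 11191 tested genes. Type XI was about an order of magnitude rarer. The alpha 1 copy col11a1b was at 379 and 410 CPM in the mutant plates, against 306 and 560 CPM in the WT plates. The other copy, COL11A1 (ENSDARG00000026165), was at 116 and 127 CPM in the mutant plates, against 72.2 and 140 CPM in the WT plates. For both copies the WT plates lay on either side of the mutant plates.

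Of the fibril-associated collagens, type XII led. The 2 genes named COL12A1 are told apart by ID only. Gene ENSDARG00000019601 was at 1824 and 1863 CPM in the mutant plates, against 1516 and 2488 CPM in the WT plates, and gene ENSDARG00000078322 at 1943 and 1835 CPM in the mutant plates, against 1510 and 2185 CPM in the WT plates. The ratio of the first to the second was between 0.939 and 1.14 in all 4 plates. The type XVI gene col16a1 was at 284 and 284 CPM in the mutant plates, against 237 and 254 CPM in the WT plates.

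Among the filament-forming type VI genes, COL6A2 was at 1709 and 1738 CPM in the mutant plates, against 1277 and 1556 CPM in the WT plates. COL6A3 was at 1512 and 1500 CPM in the mutant plates, against 1302 and 1358 CPM in the WT plates, and col6a1 at 1060 and 1072 CPM in the mutant plates, against 944 and 1047 CPM in the WT plates. In each of these 3 genes both mutant plates were above both WT plates, as was so for 20.6% of all 11191 tested genes. The fourth, col6a4a, was at 304 and 351 CPM in the mutant plates, against 341 and 347 CPM in the WT plates, and overlapped.

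In the basement membrane class, COL4A1, a chain of the type IV network, was at 1177 and 1232 CPM in the mutant plates, against 1322 and 1093 CPM in the WT plates. The type XVIII gene col18a1a, which codes for a heparan sulphate proteoglycan core, was at 157 and 181 CPM in the mutant plates, against 169 and 231 CPM in the WT plates. The genotypes overlapped for both. The other 6 basement membrane members had at most 50 transcripts over all wells.

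The remaining members were sparse. COL8A1, a network-forming short chain of vessel walls, had 524 transcripts in all. The 28 members under 300 transcripts together made up 0.245% of collagen transcripts, and 8 of them had only 1 or 2 transcripts. These include chains known from cartilage, such as COL9A2 with 255 transcripts and the 2 genes named COL2A1 with 134 and 2. Nothing can be said at this depth on differences among the rarest of them.

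**Figure D1:**
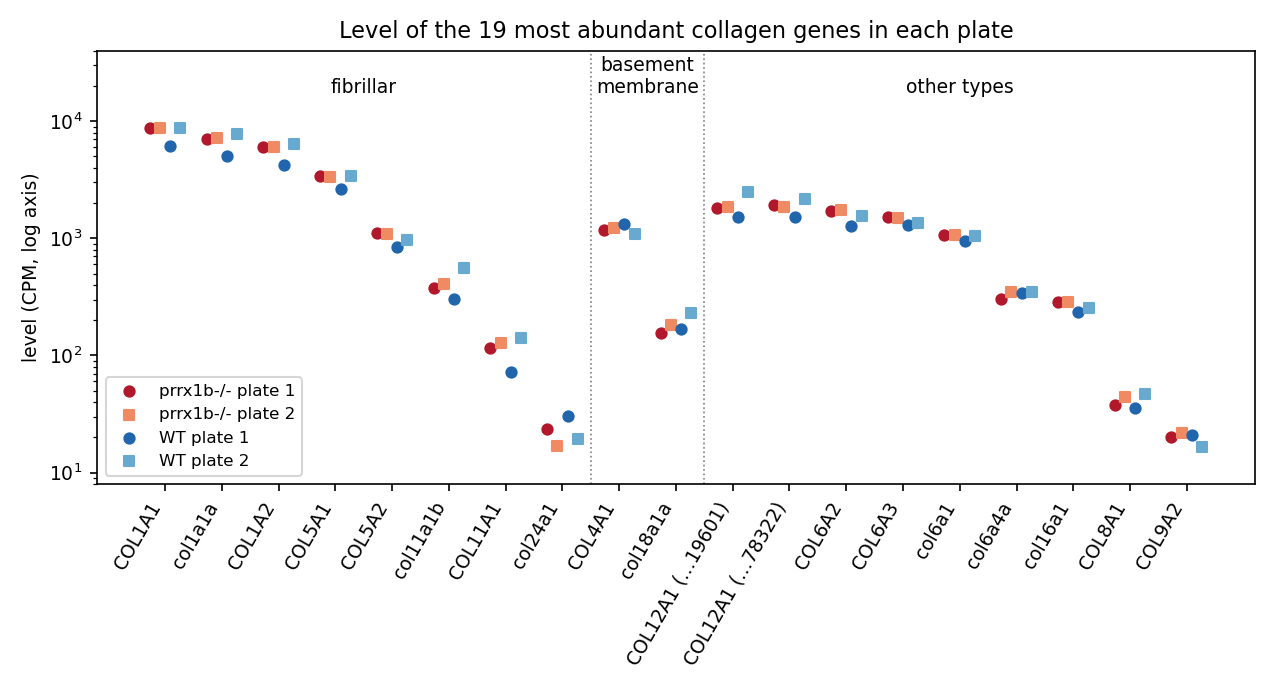
Level of the 19 most abundant collagen genes in each plate, in CPM on a log axis; points are plates, red and orange for prrx1b-/- and dark and light blue for WT, ordered by class. WT plate 1 (dark blue circles) is lowest for the type I genes, at 6163 CPM for COL1A1, while WT plate 2 reaches 8829 CPM, and the mutant plates lie between them at 8719 and 8819 CPM.

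To compare the genotypes, collagens were first summed by class as a share of all transcripts. The fibrillar sum was 2.69% in each prrx1b-/- plate, against 1.93% and 2.82% in the WT plates. The sum of other types was 0.872% and 0.873% in the mutant plates, against 0.721% and 0.932% in the WT plates, and the basement membrane sum 0.135% and 0.142% in the mutant plates, against 0.151% and 0.133% in the WT plates. In these sums the WT plates lay on either side of the mutant plates in all 3 classes. With the mean of single-well shares, which gives each well the same weight, this no longer held in any of the 3 classes. The other types still overlapped, with 0.756% and 0.775% in the mutant plates, against 0.630% and 0.774% in the WT plates. The fibrillar share was then 2.33% and 2.35% in the mutant plates, against 1.70% and 2.31% in the WT plates, and the basement membrane share 0.178% and 0.190% in the mutant plates, against 0.224% and 0.208% in the WT plates. Mean fibrillar shares were 2.69% ± 0.000474 in the mutant and 2.38% ± 0.630 in WT plates (SD, n = 2 each), so the difference of 0.315 percentage points was smaller than the spread between the WT plates. Of the single types summed, type VI did not overlap, with 0.459% and 0.466% in the mutant plates, against 0.386% and 0.431% in the WT plates. Type XII overlapped, with 0.377% and 0.370% in the mutant plates, against 0.303% and 0.467% in the WT plates. Within a plate, single wells differed far more than plates did. The share of all members in a well was lowest at 0.502%, 2.93% at the median and highest at 9.86% in mutant plate 1 and 0.416%, 2.78% and 16.0% in mutant plate 2. It was 0.196%, 2.22% and 8.87% in WT plate 1 and 0.462%, 2.70% and 14.5% in WT plate 2.

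**Figure D2:**
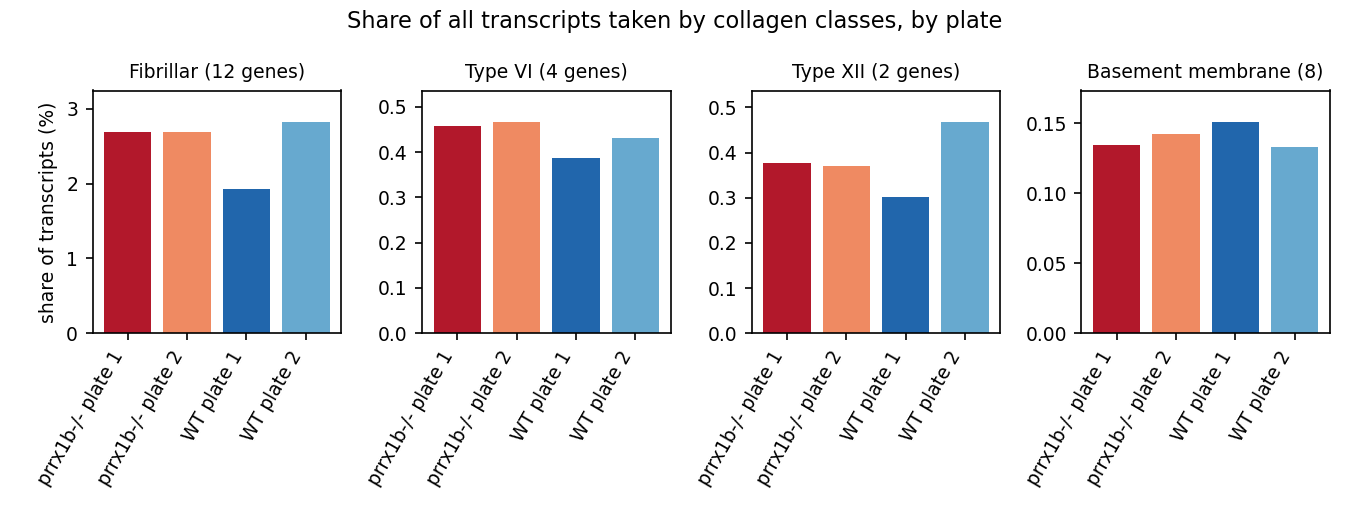
Share of all transcripts, in percent, taken by fibrillar, type VI, type XII and basement membrane collagens in each plate; each bar is 1 plate, mutant plates left and WT plates right. The fibrillar share is 2.69% in both mutant plates, against 1.93% and 2.82% in the WT plates, and in the type VI panel the bars of the genotypes do not overlap.

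No collagen gene passed the test between the genotypes. After the filter on low counts, 24 of the 45 members were tested with edgeR's quasi-likelihood test on plate sums, and 0 were called at a Benjamini-Hochberg adjusted p under 0.05, against 0.357% of all 11191 tested genes called higher and 0.617% called lower in prrx1b-/- plates. DESeq2 also called 0 members, and 1 of the 24 had an unadjusted p under 0.05, against 14.0% of all tested genes. The log2 fold change was above 0 for 16 of the 24, with a median of 0.13, beside −0.01 over all tested genes. For the type I genes the log2 fold changes were 0.24 ± 0.18 for COL1A1, 0.15 ± 0.20 for col1a1a and 0.19 ± 0.20 for COL1A2 (SE). COL6A2 (log2 fold change 0.30 ± 0.15) and COL5A2 (0.29 ± 0.14) had edgeR adjusted p of 0.415 and 0.406. The lowest adjusted p belonged to col23a1b, a transmembrane collagen, at 0.137 by edgeR with a log2 fold change of 2.12 ± 0.61. It rests on 32 and 19 transcripts in the mutant plates, against 8 and 1 transcripts in the WT plates. Both mutant plates were above both WT plates for 6 tested members (COL6A2, COL6A3, col6a1, COL5A2, col16a1 and col23a1b) and below them for 0, while 20.6% of all tested genes were above and 24.2% below.

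These calls depended on which WT plate was kept. Without WT plate 2, 10 of 26 tested members were called higher in the mutant by edgeR, among them all 3 type I genes (log2 fold changes of 0.56 to 0.60), against a background of 2.69% higher and 2.05% lower. Without WT plate 1, col23a1b was higher and COL12A1 (ENSDARG00000019601, log2 fold change −0.45) and col11a1b (−0.52) were lower, against 2.33% and 2.5% of all genes. With 1 plate left, WT is assumed to vary as the mutant plates did. The cardiomyocyte marker sum was highest in WT plate 1. Fibroblast markers (postnb, FN1, FSTL1, PTX3 and DKK3 genes) summed to 25983 and 28310 CPM in the mutant plates, against 19023 and 22324 CPM in WT plates 1 and 2. Most of this sum was FN1, while PTX3 (ENSDARG00000068275) went the other way and was higher in both WT plates. The part of either marker sum in the low collagen levels of WT plate 1 was not tested.

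Genes that act on collagen were read from a list of 32 symbols for processing enzymes and chaperones, of which 35 genes were found and 27 tested. Between genotypes 1 of these was higher and 0 were lower, against 0.357% and 0.617% of all 11191 tested genes. It was loxl2a, a lysyl oxidase that cross-links collagen, at 197 and 212 CPM in the mutant plates, against 93.7 and 123 CPM in the WT plates (log2 fold change 0.93 ± 0.17, edgeR adjusted p = 0.0314). Of 5 collagen receptor genes and 8 genes of fibril-binding proteins tested, edgeR called 0 in either direction, with 1 of each at an unadjusted p under 0.05. SPARC, a secreted collagen-binding protein, was at 4675 and 4330 CPM in the mutant plates, against 3373 and 4287 CPM in the WT plates, with WT plate 1 again lowest.

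The cells were next divided by marker transcripts that are no collagens. After each well was thinned at random to 1000 transcripts, wells with a transcript of wt1b or aldh1a2 were set against wells with tcf21 or tbx18 and neither of those. Thinning set the groups only, and levels were taken from all transcripts of each well. A well without a marker after thinning can therefore hold it among all its transcripts. The study placed cells of the second kind over the remote myocardium, and expression of wt1b and aldh1a2 was highest in cells it placed over the injury. It also found both genes in most clusters outside the remote epicardium, so wells of the first kind need not be injury epicardium. The wt1b or aldh1a2 wells numbered 145 and 150 in the mutant plates and 129 and 134 in the WT plates, and the tcf21 or tbx18 wells 35 and 40 in the mutant plates and 52 and 45 in the WT plates. The wt1b or aldh1a2 wells were deeper, with median transcripts between 7882 and 10528 per plate, against 3385 to 7139 in the tcf21 or tbx18 wells. The test took the plate as a block.

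Both type XII genes and both type XI alpha 1 copies were higher in the wt1b or aldh1a2 wells, and COL4A1, COL6A3 and col16a1 were lower. Of 19 members tested by edgeR, 4 were called higher and 3 lower (21.1% and 15.8%), against 5.66% and 7.22% of all 6343 tested genes. The 4 that rose were both COL12A1 genes and both type XI alpha 1 copies. COL12A1 (ENSDARG00000019601) was at 2286, 1862, 1614 and 2570 CPM in the wt1b or aldh1a2 wells of mutant plates 1 and 2 and WT plates 1 and 2, against 739, 896, 430 and 957 CPM in the tcf21 or tbx18 wells of the same plates. Every wt1b or aldh1a2 value was above every tcf21 or tbx18 value. The log2 fold change was 1.54 ± 0.12 (edgeR adjusted p = 2.52e-07), and that of ENSDARG00000078322 was 1.60 ± 0.11. The type XI gene col11a1b was at 461, 407, 301 and 627 CPM, against 90.1, 282, 61.4 and 133 CPM in the same plates (log2 fold change 1.79 ± 0.25, edgeR adjusted p = 0.000126). Its lowest wt1b or aldh1a2 value, in WT plate 1, was above its highest tcf21 or tbx18 value, in mutant plate 2. COL11A1 had the largest fold of the tested members, at 136, 135, 73.0 and 143 CPM, against 25.2, 24.5, 7.68 and 13.7 CPM (log2 fold change 2.80 ± 0.29, edgeR adjusted p = 6.92e-06). The lower group rests on 18 COL11A1 transcripts over the 4 plates.

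The members that fell were COL4A1, COL6A3 and col16a1. COL4A1 was at 783, 739, 974 and 695 CPM in the wt1b or aldh1a2 wells of mutant plates 1 and 2 and WT plates 1 and 2, against 1781, 2230, 2203 and 1794 CPM in the tcf21 or tbx18 wells. The groups did not overlap, and the log2 fold change was −1.29 ± 0.10 (edgeR adjusted p = 2.52e-07). The type XVI gene col16a1 was at 223, 205, 185 and 203 CPM, against 310, 524, 334 and 302 CPM (log2 fold change −0.78 ± 0.16, edgeR adjusted p = 0.00388). COL6A3 fell less (log2 fold change −0.48 ± 0.10, edgeR adjusted p = 0.00361), and its values also did not overlap. COL6A2 (−0.32 ± 0.11) and col6a1 (−0.36 ± 0.13) had edgeR adjusted p of 0.062 and 0.0814. COL1A1 and col1a1a were near 0, with log2 fold changes of 0.01 ± 0.11 and 0.03 ± 0.11, and so was COL5A1 at −0.04 ± 0.10.

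**Figure D3:**
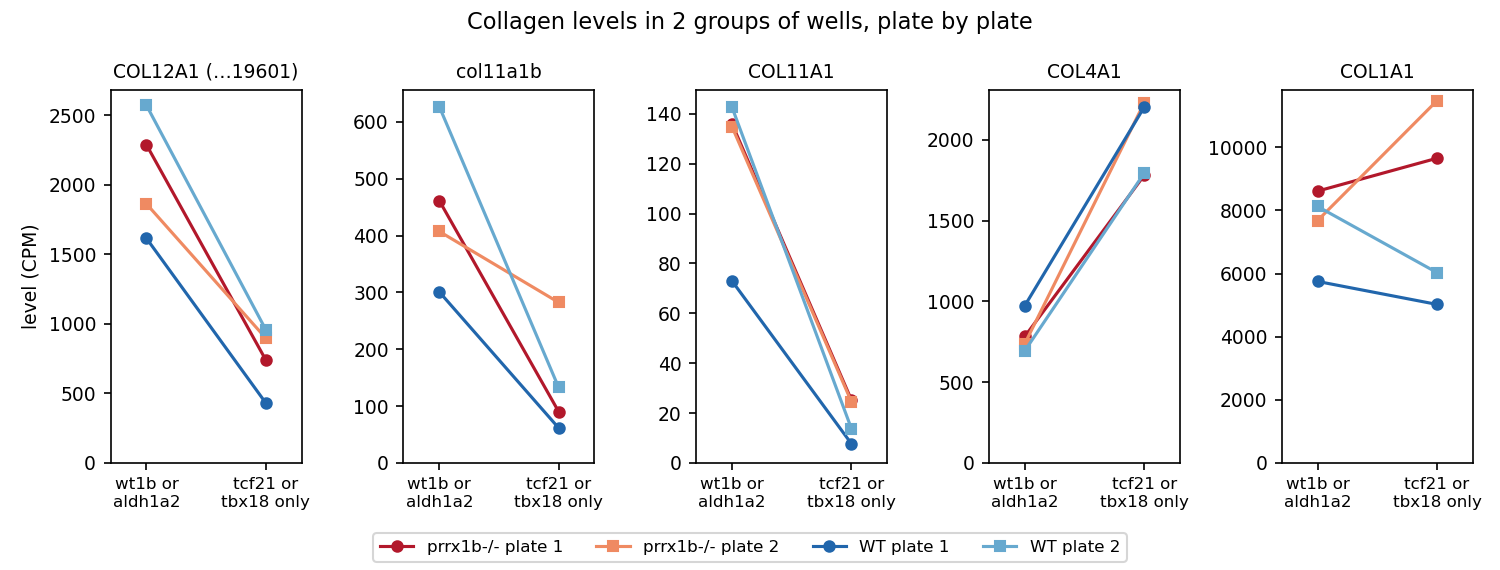
Levels in CPM of 5 collagen genes in wells with wt1b or aldh1a2 (left) and in wells with tcf21 or tbx18 and neither of those (right); each line joins the values of 1 plate, red and orange for prrx1b-/- and blue for WT. COL12A1, col11a1b and COL11A1 lie higher on the left in all 4 plates, COL4A1 lies lower there in all 4, and the lines of COL1A1 slope in opposite directions in the 2 genotypes.

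Among the processing genes, 1 of 25 tested was higher and 3 were lower in the wt1b or aldh1a2 wells. Of all 6343 tested genes 5.66% were higher and 7.22% lower, so these counts were not far from those of any genes. PLOD2, a lysyl hydroxylase, rose (log2 fold change 0.49 ± 0.12, edgeR adjusted p = 0.0128). The collagen chaperone gene SERPINH1 (ENSDARG00000019949) fell by 0.62, and the cross-linking oxidase genes LOXL1 and LOXL2 fell by 0.67 and 0.56 on the log2 scale. The other SERPINH1 gene (ENSDARG00000075954, 0.14 ± 0.16) and the other LOXL2 copy, loxl2a (−0.24 ± 0.19), were not called. Of the 5 fibril-binding genes tested, CTHRC1 (ENSDARG00000087198) rose (log2 fold change 3.95 ± 0.64), and DCN and PRELP, both small leucine-rich proteoglycans, fell by 0.79 and 1.51. Of 2 receptor genes tested, the collagen-binding integrin gene ITGA11 (ENSDARG00000007950) also fell (log2 fold change −2.52 ± 0.65). It had 102 transcripts over all wells, and its interaction with the genotype was 3.83 ± 1.13 (edgeR adjusted p = 0.74).

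With the well groups set on all transcripts and no thinning, 7 of 19 members were called higher and 5 lower, and the 4 that rose and the 3 that fell were all among them. The share of all tested genes called in that setting was not counted, so these counts have no background beside them. In that setting COL1A2 (log2 fold change 0.41), col1a1a (0.22) and col18a1a (0.92) were also higher, and COL6A2 (−0.28) and col6a1 (−0.31) also lower.

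Whether the genotype difference itself differs between these well groups was tested as an interaction. By edgeR 0 of the 19 tested members and 0% of all 6343 genes were called in either direction, DESeq2 also called 0 members, and 3 members had an unadjusted p under 0.05, against 5.03% of all genes. These were the type I genes. COL1A1 was at 8611 and 7679 CPM in the wt1b or aldh1a2 wells of the mutant plates, against 9652 and 11476 CPM in the tcf21 or tbx18 wells of the same plates. In the WT plates it was at 5749 and 8124 CPM in the wt1b or aldh1a2 wells, against 5021 and 6028 CPM in the tcf21 or tbx18 wells. It was thus lower in the wt1b or aldh1a2 wells of both mutant plates and higher in those of both WT plates. Such opposite directions were found in 3 members (COL1A1, col1a1a and COL5A1), against 8.43% of all tested genes. The COL1A1 interaction was −0.66 ± 0.16 on the log2 scale, with an edgeR adjusted p of 0.732.

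Wells with the smooth muscle actin gene acta2, again set after thinning to 1000 transcripts, numbered 21 and 22 in the mutant plates and 26 and 16 in the WT plates. Type I, XI and XII genes were lower in these wells than in wells with no acta2 after thinning, called wells without acta2 below, whereas COL4A1 was higher. Some wells without acta2 after thinning held it among all their transcripts, from which the levels were taken. On all transcripts acta2 was found in 73 and 48 wells of the mutant plates and 76 and 48 wells of the WT plates. The acta2 wells were shallower, with median transcripts between 2962 and 5940 per plate, against 5217 to 7785 in wells without. Of 20 members tested by edgeR, 1 was called higher and 10 lower, against 3.78% and 5.36% of all 8296 tested genes. COL4A1 was at 2186, 2165, 2024 and 1450 CPM in the acta2 wells of mutant plates 1 and 2 and WT plates 1 and 2, against 1122, 1182, 1286 and 1076 CPM in the wells without acta2. It was higher in all 4 plates with no overlap (log2 fold change 0.58 ± 0.14, edgeR adjusted p = 0.00828). Without either mutant plate the COL4A1 call was lost, at edgeR adjusted p of 0.0818 and 0.108.

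The 10 that fell were the 3 type I genes, both COL12A1 genes, both type XI alpha 1 copies, COL6A3, col6a4a and COL8A1. The type I log2 fold changes were −0.62 ± 0.14 for COL1A1, −0.70 ± 0.14 for col1a1a and −0.78 ± 0.14 for COL1A2. In mutant plate 1, however, COL1A1 was at 9748 CPM in acta2 wells, against 8664 CPM in wells without. In mutant plate 2, WT plate 1 and WT plate 2 it was at 4931, 4040 and 6272 CPM in acta2 wells, against 9026, 6273 and 8946 CPM in wells without. The COL1A1 call was lost without mutant plate 2 (edgeR adjusted p = 0.121) and by DESeq2 (adjusted p = 0.118), and that of col6a4a without mutant plate 2 (edgeR adjusted p = 0.0662). The type XI gene col11a1b was at 86.6, 91.6, 133 and 140 CPM in acta2 wells, against 395, 427, 315 and 579 CPM in wells without (log2 fold change −2.08 ± 0.23). COL11A1 was at 15.3, 22.9, 6.98 and 8.74 CPM, against 122, 132, 75.4 and 146 CPM (−3.22 ± 0.39), and these 2 genes did not overlap between the groups. Both COL12A1 genes, COL6A3, col6a4a and COL8A1 did not overlap either. The same was so for col6a1 and COL2A1 (ENSDARG00000011407), which were higher in the acta2 wells of all 4 plates and not called. COL8A1 rests on 3 transcripts in acta2 wells and 521 in the others, a ratio of 0.111 (95% interval 0.0229 to 0.327, exact and for counting error only). COL5A1, COL5A2, COL6A2 and col6a1 were not called.

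All of these calls but that of col6a4a were lost where acta2 wells were set without thinning. With all transcripts used, acta2 wells numbered 48 to 76 per plate, 0 members were called higher and 1 lower (col6a4a, log2 fold change −0.39), against 1.94% and 1.8% of all genes, and COL1A1 and COL4A1 were at 0.05 and −0.04. In the acta2 wells set after thinning, 1 of 26 tested processing genes was higher and 2 were lower, against 3.78% and 5.36% of all 8296 tested genes. LOX was higher (log2 fold change 1.22 ± 0.31). Lower were loxl2a and pcolcea, which codes for an enhancer of procollagen cleavage (−1.20 ± 0.29 and −0.95 ± 0.18). Of 3 receptor genes tested, the integrin gene ITGA1 was higher (1.40 ± 0.21). Of 8 fibril-binding genes tested, BGN (2.62 ± 0.48) and CTHRC1 (ENSDARG00000001971, 2.82 ± 0.45) were higher and LUM (−2.87 ± 0.34) and SPARC (−0.52 ± 0.12) lower. These BGN and CTHRC1 genes had 109 and 161 transcripts over all wells. Whether the calls of these genes hold without thinning was not read.

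A broad difference also lay between wells with and without postnb, the periostin gene that marks activated fibroblasts. As postnb is sparse, these wells were set on all transcripts, and they numbered 23 and 21 in the mutant plates and 8 and 11 in the WT plates. The share of all transcripts on collagens was 6.17%, 5.84%, 6.02% and 6.96% in the postnb wells of mutant plates 1 and 2 and WT plates 1 and 2, against 3.47%, 3.51%, 2.69% and 3.73% in wells without postnb. By edgeR 13 of 19 tested members were called higher and 0 lower, against 2.37% and 4.61% of all 8422 tested genes. The median log2 fold change of the members was 0.87, beside −0.08 over all tested genes. With edgeR 1 member (col6a4a) was lower at an unadjusted p under 0.05, DESeq2 called 0 lower, and 1 was called lower without a filter on low counts or without WT plate 1.

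All 3 type I genes, COL5A1, COL5A2, COL6A2, col6a1, both COL12A1 genes, both type XI alpha 1 copies, col18a1a and COL8A1 rose in postnb wells. COL1A1 was at 14901, 12553, 13877 and 17169 CPM in the postnb wells of mutant plates 1 and 2 and WT plates 1 and 2, against 8152, 8466, 5883 and 8395 CPM in wells without (log2 fold change 0.89 ± 0.10, edgeR adjusted p = 1.39e-06). COL5A1 was at 6484, 6218, 7178 and 5488 CPM, against 3158, 3044, 2490 and 3320 CPM (1.04 ± 0.12). For both genes every postnb value was above every value of the other wells. The largest folds were those of col18a1a, COL8A1 and COL11A1. The type XVIII gene col18a1a was at 265, 875, 470 and 614 CPM, against 147, 116, 158 and 211 CPM (1.70 ± 0.24, edgeR adjusted p = 3.1e-05). COL8A1 was at 59.8, 164, 166 and 84.4 CPM, against 35.9, 33.2, 30.6 and 45.2 CPM (1.61 ± 0.31, edgeR adjusted p = 0.00114), and COL11A1 at 252, 237, 137 and 330 CPM, against 104, 116, 69.7 and 131 CPM (1.14 ± 0.21, edgeR adjusted p = 0.000577). None of these 3 overlapped between the groups, nor did any other called member, nor COL6A3, which was not called. In none of the comparisons of well groups was such a lack of overlap counted over all tested genes. COL4A1 (0.20 ± 0.15), COL6A3 (0.38 ± 0.13) and col16a1 (0.30 ± 0.19) were not called, and col6a4a was on the other side of 0 at −0.66 ± 0.21 with an edgeR adjusted p of 0.056.

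Of the 26 processing genes tested, 7 rose in postnb wells, 0 were called lower and 19 were not called. Of all 8422 tested genes 2.37% were called higher and 4.61% lower. At an unadjusted p under 0.05, 2 processing genes were lower by edgeR (ADAMTS3 at −1.31 ± 0.43 and pcolcea at −0.54 ± 0.20). The 7 were LOX, LOXL2, PLOD1, PLOD2, FKBP10, PPIB and SERPINH1 (ENSDARG00000075954), with log2 fold changes between 0.46 for PPIB and 0.92 for LOX. The more abundant SERPINH1 gene (ENSDARG00000019949, −0.02 ± 0.17) and loxl2a (0.01 ± 0.40) were not called. Of the fibril-binding genes, 4 of 8 rose, namely SPARC (0.79 ± 0.11), DCN (0.65 ± 0.12), LUM (1.07 ± 0.24) and CTHRC1 (ENSDARG00000001971, 2.22 ± 0.48). The postnb wells were deeper, with median transcripts between 11212 and 14716 per plate, against 4995 to 7386 in the other wells. With wells of at least 5000 transcripts alone, 13 members were again higher and 0 lower, but the postnb wells were still deeper, with medians between 12190 and 16320, against 9143 to 9696. The share of all tested genes called among these wells was not counted. The postnb wells made up 6.28% and 5.74% of wells in the mutant plates, against 2.24% and 3.02% in the WT plates, and the part of this in the collagen levels of whole plates was not tested.

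**Figure D4:**
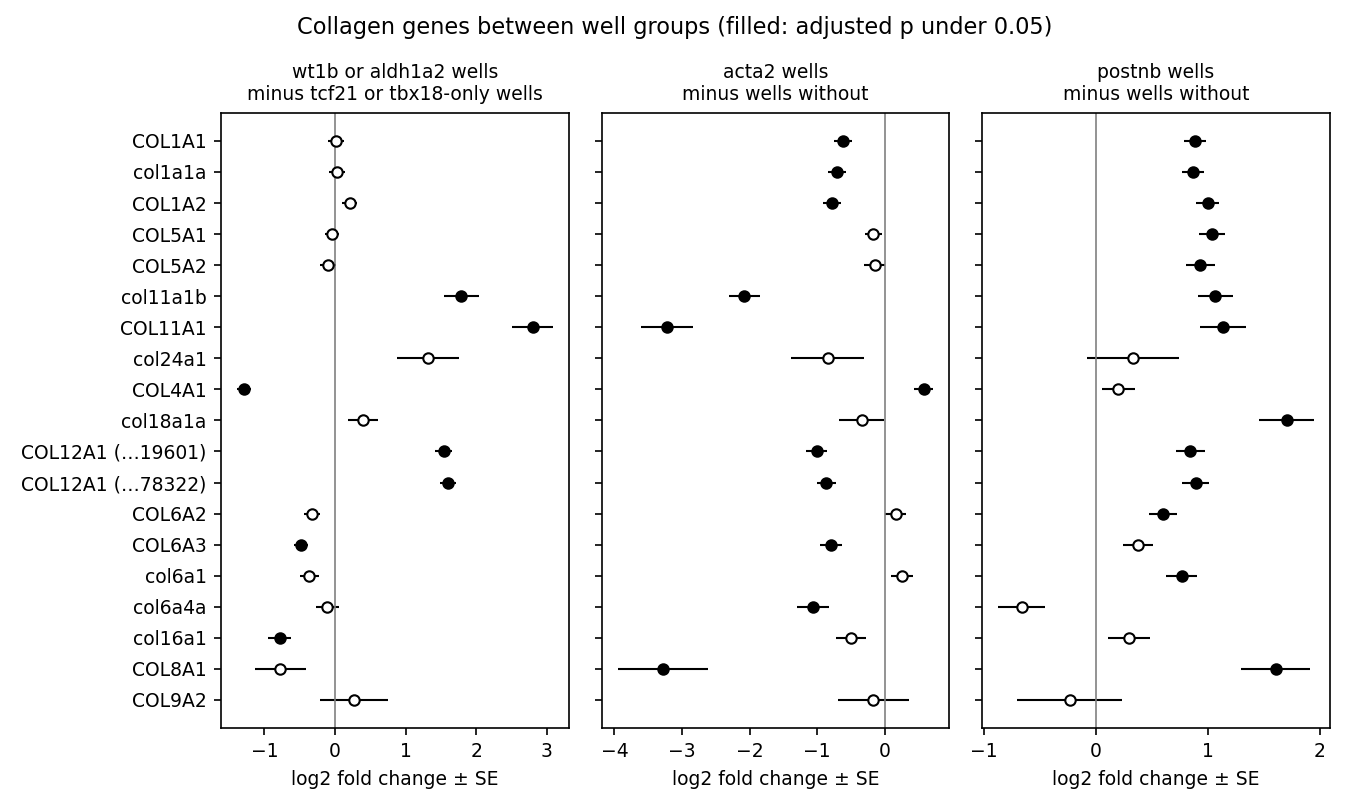
Log2 fold changes of the 19 collagen genes tested in all 3 comparisons of well groups, with SE bars, fitted over 4 plates with the plate as a block; filled circles had an edgeR adjusted p under 0.05. In the left panel COL11A1 stands highest at 2.80 and COL4A1 lowest at −1.29, in the middle panel most genes lie below 0, and in the right panel 13 of 19 are filled and all 13 lie above 0.

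Collagen genes also varied together from well to well. Each well was thinned to 2000 transcripts, which kept 354 and 350 wells of the mutant plates and 336 and 326 wells of the WT plates, and Pearson correlations of square-root counts were taken within each plate. The median of the 4 plates is given, without a test, as wells of a plate share library and hearts. Over the 105 pairs of the 15 members found in at least 10% of these wells, the median correlation was 0.21. Over all 2465310 pairs of the 2221 genes that met the same minimum of 10%, it was −0.0006. These genes were not matched to the members for abundance, so how far the gap is particular to collagens was not tested. The median of the member pairs was 0.19 and 0.24 in the mutant plates and 0.17 and 0.21 in the WT plates.

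Some pairs of one collagen type were close and others were not. Counting noise lowers the correlations of sparser genes, and the members differ widely in abundance. With wells thinned to 1000 transcripts the median of the member pairs was 0.148. How far the order of the pairs follows abundance was not tested. COL1A1, col1a1a and COL1A2 had the highest correlations with each other, between 0.77 and 0.82, and COL5A1 followed each of them at 0.57 to 0.62. COL5A1 and COL5A2 were at 0.45. Among type VI genes, COL6A2 and col6a1 were at 0.44 with each other and at 0.47 and 0.46 with COL1A1, while COL6A3 was at 0.27 with COL6A2, at 0.245 with col6a1 and at 0.33 with COL1A1. The 2 COL12A1 genes were at 0.68 with each other and at 0.51 and 0.47 with col11a1b. Towards COL1A1 the COL12A1 genes were weaker, at 0.27 and 0.25. COL4A1 was on the negative side with both COL12A1 genes, at −0.26 and −0.25, and with col11a1b at −0.23, in each of the 4 plates. Its highest correlation with another member was that with COL6A3, at 0.35, and with the other basement membrane gene, col18a1a, it was at 0.12. The gene col6a4a was between −0.02 and 0.02 with the type I genes and between −0.06 and 0.06 with the other type VI genes.

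**Figure D5:**
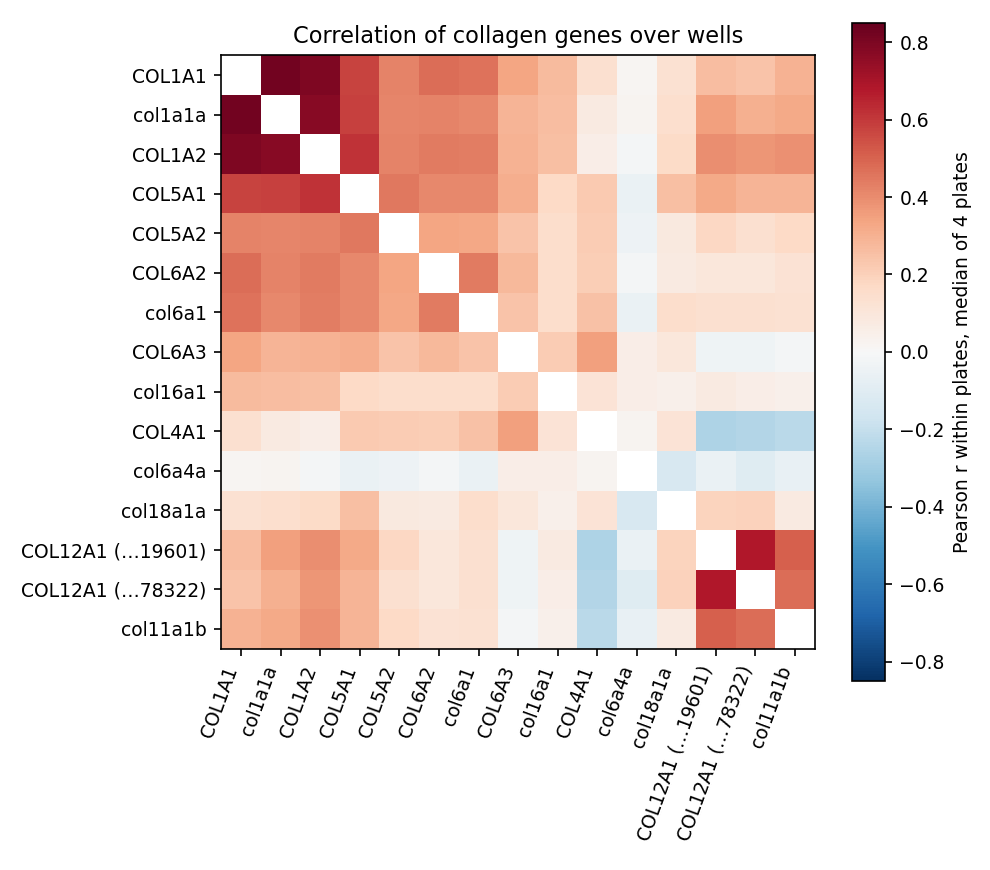
Pearson correlation of 15 collagen genes over wells thinned to 2000 transcripts, as the median of 4 plates, red for positive and blue for negative; rows and columns are genes. The type I genes form a block of 0.77 to 0.82 with COL5A1, COL5A2, COL6A2 and col6a1 around it, the COL12A1 genes and col11a1b form a second block, and COL4A1 is blue against that second block, down to −0.26.

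The genes differed in how evenly they were spread over wells. After thinning, COL1A1 was found in 99.0% of wells, and the 10% of wells with most COL1A1 held 29.0% of its transcripts (median of the plates). COL5A1, COL6A2 and COL6A3 were spread alike, at 28.9%, 29.2% and 28.0%. The COL12A1 genes were found in 62.4% and 63.0% of wells, and the top 10% of wells held 47.0% and 44.0%. For col11a1b and col18a1a, found in 25.2% and 18.1% of wells, these shares were 64.4% and 75.8%. A share of this kind rises as a gene becomes sparser, so it is a description only. COL11A1 was found in 85 of the thinned wells and col11a1b in 344, and 59 wells had both, which is 69.4% of the COL11A1 wells and 17.2% of the col11a1b wells. COL12A1 (ENSDARG00000078322) was found in 94.1% of the COL11A1 wells, while 63.0% of all thinned wells had it.

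Among the 1042 other genes found in at least 20% of thinned wells, the closest to the summed fibrillar members was SPARC, with a correlation of 0.68, followed by DCN at 0.51. The median over these genes was −0.01. They were not matched for abundance, so how far their order depends on it was not tested. The next were FSTL1 (ENSDARG00000039576, 0.38), a secreted glycoprotein, MDK (0.35), a heparin-binding growth factor, and CKB (0.34), a creatine kinase. ENSDARG00000061219, which has no symbol in the name table, was at 0.33, the fibronectin gene FN1 (ENSDARG00000019815) at 0.32 and tmsb2, a thymosin, at 0.32. The list ended with aebp1b, which codes for a secreted collagen-binding protein, at 0.27 and ENSDARG00000035682, also without a symbol, at 0.25. The more abundant of the FN1 genes (ENSDARG00000006526), with 254606 transcripts against 22065, was not in this list. The listed FN1 gene was closer to type XII and XI, at 0.56 with each COL12A1 gene and 0.45 with col11a1b, and PTX3 (ENSDARG00000068275), a secreted pentraxin, was at 0.38, 0.39 and 0.31 with these genes. COL4A1 was closest, among the marker and collagen-binding genes read, to RGS5 (0.27), DCN (0.23) and TAGLN (ENSDARG00000033466, 0.22), of which RGS5 and TAGLN are genes of mural cells.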

How the data were processed

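Single mCherry-positive cells were measured by SORT-seq and CEL-Seq2. The authors mapped reads to the zebrafish assembly Zv9 (BWA 0.6.2 is named in the submitters' processing notes) and deposited expected counts, the number of different molecular barcodes per gene and well corrected for shared barcodes, without scaling for depth. How reads that fit both copies of a duplicated gene were counted is not given in the sources used here, so copies such as COL1A1 and col1a1a are uncertain against each other. Spike-ins and wells under 1000 transcripts were left out. Wells hold 1 sorted cell, so doublets were not called, and all plates use the same 384 well barcodes. Plate totals were 3773059 and 3458835 transcripts in the prrx1b-/- plates and 2914680 and 2628354 in the WT plates, and intervals cover counting error only.

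Symbols came from a table of gene IDs, with 16179 of 20880 genes named. The members and all lists were chosen with earlier results of these data known. Classes were fibrillar (types I, II, III, V, XI, XXIV and XXVII), basement membrane (IV, XV and XVIII) and other. Expected counts were summed per plate or per well group and plate, and rounded. They were then tested over all genes with edgeR 4.0.16 (filterByExpr, TMM, quasi-likelihood test, Benjamini-Hochberg) in R 4.3.3. A sum needed at least 5 wells. Tested on simulated data, the genotype fit recovered 47 of 100 genes changed 2-fold and 91 of 100 changed 4-fold, with 7 unchanged genes called. The simulation gave all genes the same dispersion in both genotypes. Collagens differed more between the WT plates than between the mutant plates, so this recovery does not carry over to them. Named were the 15 members with most transcripts, any called between genotypes, the 3 called members of largest fold in each direction of each well-group comparison, and the 10 genes most like the fibrillar sum. A few others are named where a count or a gap is about them, and were chosen after their values were seen. Alternatives were DESeq2 1.42.0, DESeq2's size factors within edgeR (RLE), no filter, other minimums of wells, thinning, well groups set without thinning, leaving out single plates, and the replicate number as a block. Correlations used wells thinned to 2000 transcripts.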

Additional observations from a re-analysis of the deposited data

Results flagged for a closer look

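For 3 members, between wt1b or aldh1a2 wells and tcf21 or tbx18 wells, both prrx1b-/- plates went one way and both WT plates the other, which was also so for 8.43% of all 6343 tested genes. The log2 fold change between the well groups in the mutant, minus that in WT, was −0.66 for COL1A1, −0.60 for col1a1a and −0.32 for COL5A1. All 3 had the wt1b or aldh1a2 wells lower than the tcf21 or tbx18 wells in the mutant and higher in WT. As an interaction in edgeR the adjusted p was 0.732, 0.74 and 0.999. The mutant plates held 35 and 40 tcf21 or tbx18 wells, against 52 and 45 in the WT plates.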

How the results depend on the processing

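With 2 plates per genotype the counts of calls were not stable. Leaving out single plates gave 0 to 10 members higher and 0 to 2 lower in prrx1b-/- plates, and, among genes that act on collagen, 1 to 7 higher and 0 to 1 lower. In the same settings the log2 fold change between genotypes lay between −0.024 and 0.58 for COL1A1, −0.16 and 0.56 for col1a1a, −0.10 and 0.60 for COL1A2, and −0.035 and 0.42 for COL5A1. It lay between −0.45 and 0.35 for COL12A1 (ENSDARG00000019601), −0.22 and 0.40 for COL12A1 (ENSDARG00000078322), −0.062 and 0.13 for COL4A1, and −0.52 and 0.44 for col11a1b. The range was −0.14 to 0.045 for col6a4a and −0.46 to 0.072 for col18a1a. These changes of sign came with leaving out a WT plate, and for col6a4a also with leaving out mutant plate 1. Without a filter on low counts 1 member was higher (col23a1b), as it was with the replicate number as a block (edgeR adjusted p = 0.00681). Deviations of same-numbered plates correlated at 0.0288 over 9610 genes. With 2 plates per genotype this value cannot tell whether the numbers pair the plates. Of the genes that act on collagen, 2 were higher by DESeq2 and 4 without a filter. The share of all tested genes called was not counted by DESeq2, without a filter or with the block. With wells thinned to 1000 transcripts COL4A1 was at −0.26 between genotypes, and as a mean of single-well shares the basement membrane difference was −0.0320 percentage points.

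Between wt1b or aldh1a2 wells and tcf21 or tbx18 wells, 9 members were higher without a filter, 7 were higher and 5 lower with groups set without thinning, and 5 were lower in sums of thinned wells. More members were tested without a filter. For these alternatives between well groups, the share of all tested genes called was counted only for acta2 wells set without thinning (1.94% higher and 1.8% lower). The other counts have no background beside them. Leaving out single plates gave 2 to 5 lower, the 5 without WT plate 2, and without mutant plate 2 col16a1 lost its call (−0.58, edgeR adjusted p = 0.0527). The interaction gave 1 member lower without a filter. In acta2 wells 0 to 1 were higher when single plates were left out, and with groups set without thinning 0 were higher and 1 lower, with COL4A1 at −0.044, col11a1b at 0.048 and COL11A1 at 0.14. In postnb wells 1 was lower without a filter, and 0 to 1 when single plates were left out. The median correlation of member pairs was 0.148 with wells thinned to 1000 transcripts. The causes were not tested.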
